A study of Mus musculus with 6 samples.

Results

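The genes described here encode the enzymes that attach glucuronic acid, sulfate or glutathione to small molecules. They were chosen by symbol alone: every gene of the count table named as a UDP-glucuronosyltransferase of families 1 to 3 (Ugt1a, Ugt2a, Ugt2b, Ugt3a), a cytosolic sulfotransferase (Sult), a glutathione S-transferase of the alpha, kappa, mu, omega, pi, theta or zeta class (Gsta, Gstk, Gstm, Gsto, Gstp, Gstt, Gstz) or a microsomal glutathione S-transferase (Mgst1 to Mgst3). The rule found 62 of the 23845 genes in the table, 20 Ugt, 18 Sult, 21 Gst and 3 Mgst genes, and used no measured value.

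The study sequenced RNA from intestinal epithelial cells of mice, with 6 libraries in 3 groups of 2. Neurog3 is the transcription factor that commits gut progenitors to the enteroendocrine fate, and the study compared cells with 1 and with 2 alleles of it. EGFP cells are Neurog3+/-EGFP cells of the C57BL6 strain, with 1 Neurog3 allele. EYFP cells are Neurog3+/+EYFP cells from a mixed C57BL6 and CD1 background, with 2 alleles. Both were isolated by flow sorting as Neurog3-expressing cells. Wild-type epithelium is C57BL6, carries 2 alleles and no reporter, and its titles point to duodenum; the labels do not say that it was sorted. The sources used here do not give ages, sorting gates, the gut segment of the sorted cells, or whether the 2 libraries of a group came from separate animals. The p-values therefore measure only the spread between these libraries, which may be technical in the sorted groups.

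Conjugation is the second phase of the handling of bile pigments, bile acids, steroids, thyroid hormone, drugs and dietary compounds. UGT enzymes sit in the membrane of the endoplasmic reticulum and transfer glucuronic acid from UDP-glucuronic acid; SULT enzymes work in the cytosol and use the activated sulfate PAPS; GST enzymes add glutathione to electrophiles such as lipid peroxidation products. The conjugates leave the cell through ATP-driven pumps, and in the gut the absorptive enterocytes of the villus are known as the main site of this chemistry.

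Levels are given in CPM, the count over the scaled library total. Neurog3 itself stood at 119 and 179 CPM in EGFP cells, 563 and 348 CPM in EYFP cells, and 5.99 and 6.39 CPM in wild-type epithelium. It was higher in EYFP than in EGFP cells by 1.61 ± 0.28 on the log2 scale (SE, n = 2 against 2, adjusted p = 0.0049, edgeR's quasi-likelihood test with Benjamini-Hochberg adjustment over all 13935 genes tested). All adjusted p-values below come from this fit, and a gene was called when its adjusted p was under 0.05. Totals ran from 7938358 to 20589683 counts per library. The groups also differed in other cell type markers. Summed goblet cell markers stood at 64449 and 103662 CPM in EGFP cells against 708 and 1851 CPM in EYFP cells (10 of 10 lower), and Paneth cell markers at 14555 and 18507 CPM against 735 and 401 CPM (8 of 8 lower). Tuft cell markers stood at 220.0 and 131 CPM against 6.41 and 15.1 CPM (7 of 7 lower, with Gng13 and Il25 at 0 in both EYFP libraries), crypt stem and dividing cell markers at 2665 and 2247 CPM against 785 and 894 CPM (9 of 10 lower), and enteroendocrine markers at 14865 and 21872 CPM against 67420 and 63765 CPM (9 of 12 higher). Enterocyte markers summed to 1245 and 1670 CPM in EGFP cells and 1060 and 2009 CPM in EYFP cells, of which 1 of 12 was lower, but to 29654 and 48142 CPM in wild-type epithelium, where 12 of 12 were above either sorted group and none was at 0 in any group. Epithelial markers were present in all groups with none at 0. The first EYFP library also held immune cell markers at 253 CPM against 18.3 CPM in the second, of which the macrophage gene Lyz2 made 206 CPM. The 2 EGFP libraries and the second wild-type library held Xist at 726 CPM or more and the other 3 libraries at 2.35 CPM or less, so sex differed between and within groups. The 2 wild-type libraries thus came from different animals, and their spread includes a sex difference. The part of these markers, of sex and of strain in the differences below was not tested. Both EGFP libraries were high in Xist and both EYFP libraries low. Sex, strain, reporter and Neurog3 dosage therefore cannot be told apart between the sorted groups. Against wild-type epithelium, the reporter and the selection of Neurog3-expressing cells cannot be told apart, nor can strain from them in EYFP cells. In bulk libraries, fewer cells of a type and less RNA per cell cannot be told apart either.

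Of the 62 genes, 14 were listed at 0 counts in every library: Sult1c1, Sult1e1, Sult2a1 to Sult2a7, Sult3a1, Sult5a1, Ugt2b37, Ugt3a1 and Ugt3a2. Another 9 had too few counts to be tested (Gstt4, Sult1a1, Sult6b1, Ugt1a2, Ugt1a5, Ugt2a1, Ugt2a2, Ugt2b1 and Ugt2b38), none above 1.45 CPM in any library. The other 39 passed the filter on low counts. Among them, Gsto2 and Sult4a1 passed only through the EYFP libraries and Gsta2 only through the wild-type libraries, the groups where they were highest. Ugt1a10 passed only through the second EGFP and the second EYFP library, where it was highest. Calls and ratios of these genes against the other groups are therefore no independent support. A count of 0 in a library allows up to 3 counts, a level of 0.181 to 0.362 CPM depending on the library, from counting error alone. Together the 62 genes held 0.198% and 0.224% of all counts in EGFP cells, 0.286% and 0.274% in EYFP cells, and 0.714% and 0.629% in wild-type epithelium.

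**Figure D1:**
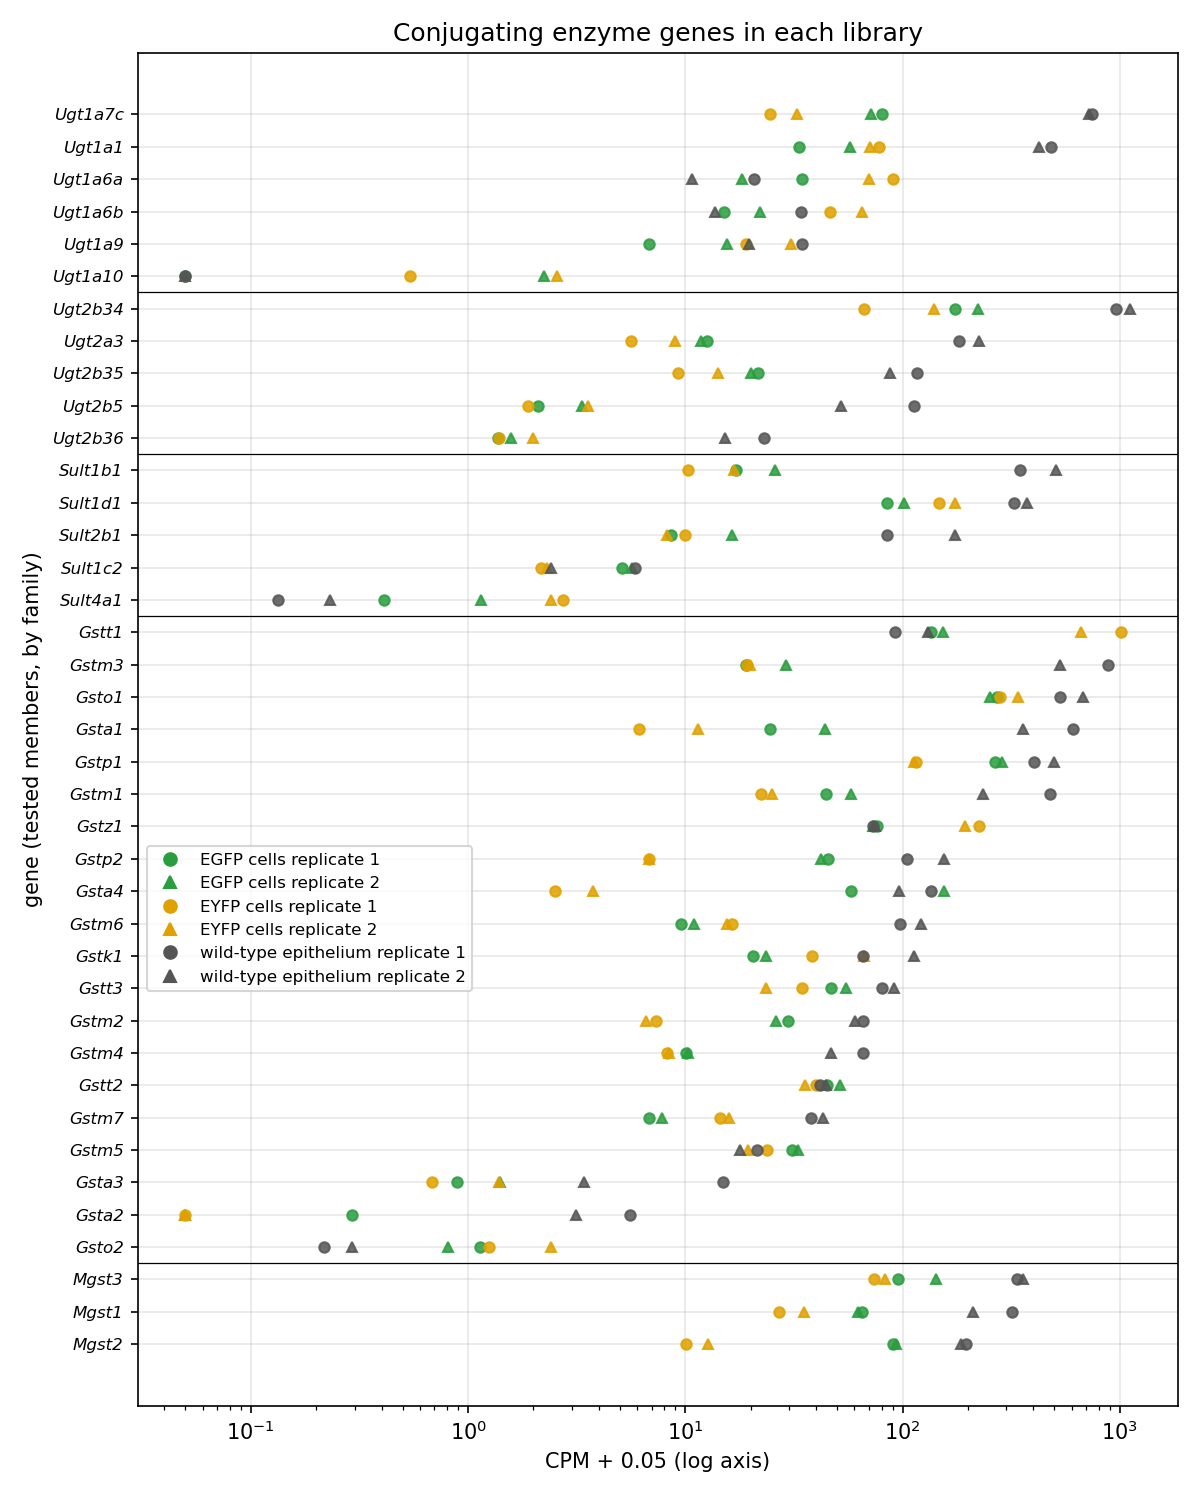
Level of each of the 39 tested genes (rows, grouped into Ugt1a, Ugt2, Sult, Gst and Mgst by black lines) in each of the 6 libraries, in CPM plus 0.05 on a log axis. Colour gives the group and symbol shape the replicate. Most wild-type points lie to the right of the sorted cells, while Gstt1, Gstz1, Ugt1a6a, Ugt1a6b, Gsto2 and Sult4a1 have both EYFP points farthest right.

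Between the sorted groups, EYFP cells had 8 of the 39 tested genes higher and 14 lower than EGFP cells. Among all genes tested, 36.2% were called, 16.8% as higher and 19.4% as lower, against 20.5% and 35.9% of these genes; the median log2 fold change was -0.35 over the 39 genes and 0.01 over all genes. With DESeq2's size factors in place of TMM the split was 9 higher and 10 lower. The 2 directions fell on different enzymes. Gstt1, Gstz1, Gstk1, Gstm6, Gstm7, Sult1d1, Ugt1a6a and Ugt1a6b were the genes higher in EYFP cells. Gsta1, Gsta4, Gstm1, Gstm2, Gstm5, Gstp1, Gstp2, Gstt3, all 3 Mgst genes, Ugt1a7c, Ugt2a3 and Ugt2b35 were lower. Leaving out 1 library at a time gave 3 to 8 higher and 7 to 14 lower. The lowest higher count came without the second EYFP library, and the lowest lower count without the second EGFP or the first EYFP library. The first EGFP library also moved both, to 4 higher and 8 lower, as did the first EYFP library for the higher count, to 5. Called under every alternative fit that kept their row were Gstt1, Gstz1 and Gstm7 among the higher genes, and Gsta4, Gstm2, Gstp1, Gstp2, Mgst2 and Ugt1a7c among the lower. With no filter on low counts, calls were lost for Ugt1a6a (adjusted p = 0.084), Ugt1a6b (0.13), Gstk1 (0.085), Gsta1 (0.084) and Gstm1 (0.10), and gained for Ugt1a1 as higher and Sult1c2 as lower in EYFP cells. With DESeq2's size factors they were lost for Ugt2a3 (0.066), Mgst3 (0.080), Gstm5 (0.069) and Gstm1 (0.060), and with its Wald test for Ugt2a3 (0.053), Mgst3 (0.069) and Gstm5 (0.097). In a fit of only the 4 sorted libraries, Ugt2a3 (0.073) and Mgst3 (0.056) did not pass.

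**Figure D2:**
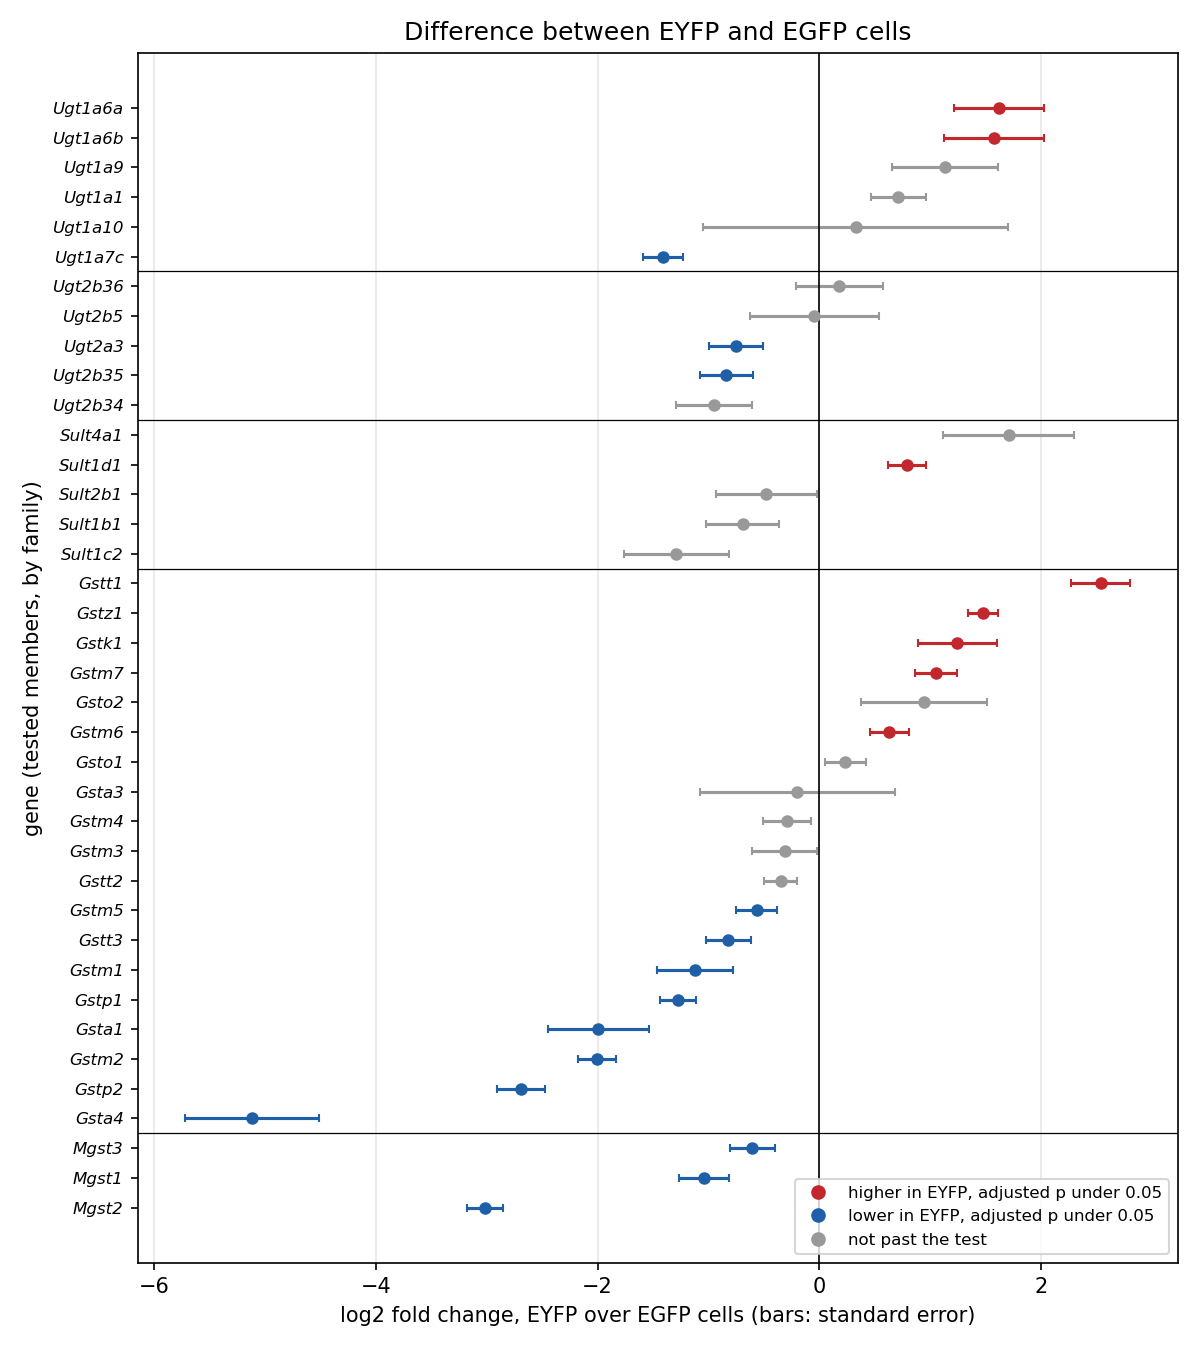
Log2 fold change of EYFP over EGFP cells for 38 tested genes, with bars of 1 standard error, ordered within Ugt1a, Ugt2, Sult, Gst and Mgst. Red and blue mark genes past the adjusted p of 0.05 and grey those that were not; Gsta2, at 2 counts or fewer in all 4 libraries together, is left out. The points run from -5.12 for Gsta4 to 2.54 for Gstt1.

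Against wild-type epithelium, EGFP cells had 3 genes higher and 27 lower, where 41.5% of all genes tested were called, 19.6% as higher and 21.9% as lower. EYFP cells had 5 higher and 27 lower, where 60.6% of all genes tested were called, 27.1% as higher and 33.5% as lower. The median log2 fold change was -1.91 in EGFP cells and -2.77 in EYFP cells, beside 0.00 and -0.12 over all genes. These 2 comparisons share the wild-type libraries. The 12 genes lower in EYFP than in EGFP cells and also lower in both sorted groups than in wild-type epithelium were Gsta1, Gstm1, Gstm2, Gstp1, Gstp2, Gstt3, Mgst1, Mgst2, Mgst3, Ugt1a7c, Ugt2a3 and Ugt2b35. Gstm6, Gstm7 and Sult1d1 were below wild-type epithelium in both sorted groups but higher in EYFP than in EGFP cells. Gstt1, Gstz1 and Ugt1a6a were higher in EYFP cells than in both other groups, and did not pass the test between EGFP cells and wild-type epithelium. For these 3 patterns the share among all genes was not counted, and the comparisons share libraries. They are lists of genes only. The enterocyte marker list differs in the same direction as the 27 lower genes, and its part in them was not tested. Summed immune cell markers stood at 203 and 241 CPM in wild-type epithelium, 18.6 and 57.5 CPM in EGFP cells, and 253 and 18.3 CPM in EYFP cells. The first EYFP library, with Lyz2 at 206 CPM, was thus above wild-type epithelium and the other sorted libraries were below. Of the 10 tested immune cell markers, 7 were lower in each sorted group. Their part was not tested either. The higher calls in EGFP cells, Gsto2, Sult4a1 and Gstm5, came to 0 without the second EGFP or the second wild-type library (3 and 2 genes at an unadjusted p under 0.05), and to 1 without the first wild-type library, either EYFP library, or with DESeq2's Wald test.

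The Ugt1a genes share one locus, chr1:88055411-88220002 in mm10. Each has its own promoter and first exon, which encodes the part of the enzyme that binds the substrate, and all are spliced to the same downstream exons. The 8 first exons in the table lie in the order Ugt1a10, Ugt1a9, Ugt1a7c, Ugt1a6b, Ugt1a6a, Ugt1a5, Ugt1a2 and Ugt1a1. The 250 bases before 3 of these starts are shown because the genes behind them changed in different ways: Ugt1a7c was lower and Ugt1a6a higher in EYFP than in EGFP cells, and Ugt1a1 fell in both against wild-type epithelium. They are from RefSeq's GRCm38.p6 (the assembly of mm10), plus strand, at chr1:88094751-88095000, chr1:88134559-88134808 and chr1:88211709-88211958. Capitals mark E-boxes, CANNTG, the motif that basic helix-loop-helix factors such as NEUROG3 bind.
Ugt1a7c: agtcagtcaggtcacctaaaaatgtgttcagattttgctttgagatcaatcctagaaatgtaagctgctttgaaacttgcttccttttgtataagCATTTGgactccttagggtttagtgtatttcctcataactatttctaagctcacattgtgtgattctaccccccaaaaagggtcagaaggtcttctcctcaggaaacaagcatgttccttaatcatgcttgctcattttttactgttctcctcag
Ugt1a6a: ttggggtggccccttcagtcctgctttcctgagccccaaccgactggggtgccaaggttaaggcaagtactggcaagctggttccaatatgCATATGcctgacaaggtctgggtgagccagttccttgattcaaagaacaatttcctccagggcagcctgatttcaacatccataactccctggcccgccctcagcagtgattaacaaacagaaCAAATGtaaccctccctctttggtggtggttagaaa
Ugt1a1: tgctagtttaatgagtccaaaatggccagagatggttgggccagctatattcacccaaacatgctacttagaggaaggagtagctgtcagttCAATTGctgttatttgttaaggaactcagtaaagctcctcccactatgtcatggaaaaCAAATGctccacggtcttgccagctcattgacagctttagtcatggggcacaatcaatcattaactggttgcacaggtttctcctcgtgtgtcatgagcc
The Ugt1a7c window holds 1 E-box, and the windows of Ugt1a6a and Ugt1a1 hold 2 each. E-boxes are common, and 66.2% of 32851 promoter windows of the same length hold at least 1 on either strand. The E-box form CAGATG, found in 14.4% of windows, was in none of these 3. Neither GCGTG, the core bound by the aryl hydrocarbon receptor (in 28.2% of windows), nor TGACNNNGC, the core bound by NRF2 (in 10.2%), was found on either strand of these 3 windows.

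Ugt1a7c, an enzyme of the gut lining for phenolic compounds, was at 80.6 and 71.5 CPM in EGFP cells, 24.6 and 32.7 CPM in EYFP cells, and 746 and 718 CPM in wild-type epithelium. The 3 groups did not overlap. Its level was 2.66-fold lower in EYFP than in EGFP cells (log2 fold change -1.41 ± 0.18, adjusted p = 0.0013), and 9.63-fold and 25.6-fold lower in EGFP and EYFP cells than in wild-type epithelium (adjusted p = 3.2e-05 and 4.1e-06). Ugt1a6a, known for the glucuronidation of small planar phenols, took the opposite direction. It was at 34.4 and 18.3 CPM in EGFP cells, 90.4 and 70.0 CPM in EYFP cells, and 20.7 and 10.7 CPM in wild-type epithelium. Both EYFP libraries lay above the other 4, by 3.07-fold over EGFP cells (1.62 ± 0.41, adjusted p = 0.025) and 5.14-fold over wild-type epithelium (adjusted p = 0.0034). Its near copy Ugt1a6b was at 15.1 and 22.0 CPM in EGFP cells, 46.3 and 64.8 CPM in EYFP cells, and 34.0 and 13.6 CPM in wild-type epithelium, 2.98-fold higher in EYFP than in EGFP cells (adjusted p = 0.039).

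The Ugt1a6a call was lost without the second EGFP or either EYFP library (adjusted p = 0.088, 0.10 and 0.058) and the Ugt1a6b call without any 1 of these 4 libraries (0.078 to 0.19) or with the replicate block (0.089). The 2 genes are hard to separate with 50-base reads, since only 19.4% and 19.3% of their 50-base windows occur in no other gene's transcripts, so their split is uncertain. Their sum, an alternative chosen after seeing the data, was 49.4 and 40.2 CPM in EGFP cells, 137 and 135 CPM in EYFP cells, and 54.8 and 24.3 CPM in wild-type epithelium. The sum was higher in EYFP than in EGFP cells by 1.60 ± 0.36 on the log2 scale (adjusted p = 0.018). It lost the call without any 1 of the 4 libraries of these groups, at log2 fold changes of 1.45 to 1.81. The call was kept without either wild-type library, at a log2 fold change of 1.60 in both fits. The SE of the main fit shares its spread with the wild-type libraries, which lay far apart for this sum.

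Ugt1a1, the enzyme that conjugates bilirubin, was at 33.1 and 57.5 CPM in EGFP cells, 78.0 and 71.0 CPM in EYFP cells, and 483 and 423 CPM in wild-type epithelium. Both sorted groups lay below wild-type epithelium, by 9.96-fold and 6.07-fold (adjusted p = 0.00011 and 0.00012). The EYFP libraries lay above the EGFP libraries, but the difference did not pass the test (0.71 ± 0.25, adjusted p = 0.059). Ugt1a9 was at 6.75 and 15.5 CPM in EGFP cells, 18.9 and 30.5 CPM in EYFP cells, and 34.5 and 19.6 CPM in wild-type epithelium, and passed none of the 3 tests. Ugt1a10 was at 0 and 2.20 CPM in EGFP cells, 0.493 and 2.52 CPM in EYFP cells, and 0 in both wild-type libraries. With counts pooled by group and a floor of 3 counts for the wild-type group, the ratio was at least 12.3 for EGFP cells. For EYFP cells it was at least 13.5, and neither comparison passed the test. The first EGFP library was at 0 like both wild-type libraries, so the pooled ratio is no bound for that library. These values rest on the second library of each sorted group, which held all of the EGFP counts and most of the EYFP counts.

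The make-up of the locus differed more between the sorted groups than its total. The 8 genes summed to 170.2 and 187 CPM in EGFP cells, 259 and 272 CPM in EYFP cells, and 1318 and 1187 CPM in wild-type epithelium. This total was higher in EYFP than in EGFP cells by 0.57 ± 0.17 on the log2 scale (adjusted p = 0.032) and lower than in wild-type epithelium (log2 fold change -2.24 in EYFP cells and -2.81 in EGFP cells); it was not refitted with libraries left out. Ugt1a7c held 47.4% and 38.2% of the locus counts in EGFP cells, 9.48% and 12% in EYFP cells, and 56.6% and 60.5% in wild-type epithelium. Ugt1a6a held 20.2% and 9.76%, then 34.9% and 25.8%, then 1.57% and 0.904%, in the same order of groups. Reads in the shared exons were divided among the genes by the authors' estimate, so these shares rest mainly on the first exons.

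**Figure D3:**
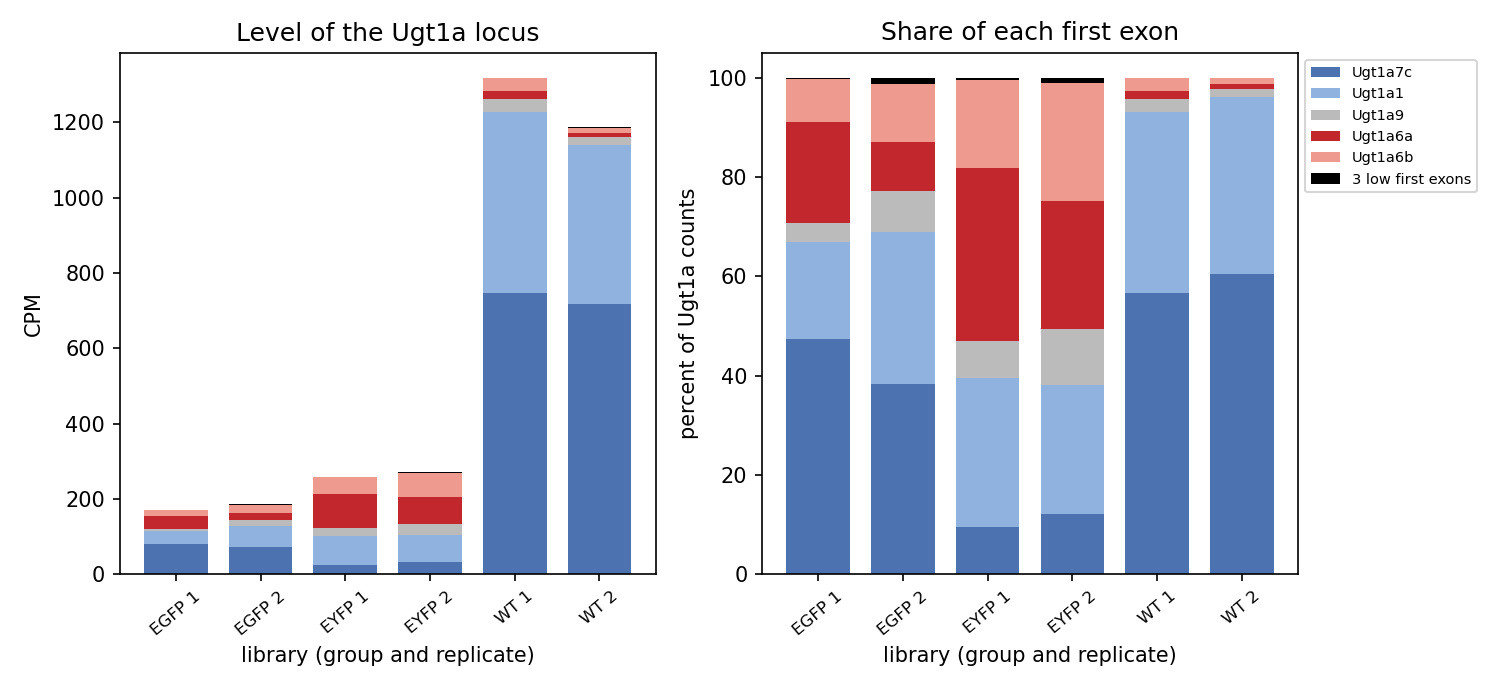
Left, stacked level of the Ugt1a genes in each library in CPM; right, the same as percent of the locus counts. The low genes in black are Ugt1a10, Ugt1a2 and Ugt1a5. The Ugt1a7c share is 9.48% and 12% in the EYFP libraries, where the Ugt1a6a share is 34.9% and 25.8%.

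The Ugt2 cluster at chr5:86889770-87490871 holds 10 genes, whose enzymes act on steroids, bile acids and fatty acids. All 5 tested genes were lower in both sorted groups than in wild-type epithelium, and 2 were lower in EYFP than in EGFP cells. Of all genes tested, 21.9% and 33.5% were lower in EGFP and EYFP cells than in wild-type epithelium. Between the sorted groups, 19.4% were lower in EYFP cells. Ugt2b34 was the most abundant, at 174 and 222 CPM in EGFP cells, 66.2 and 139 CPM in EYFP cells, and 962 and 1117 CPM in wild-type epithelium. The 2 EYFP libraries lay below the EGFP libraries but lay far apart from each other, and the difference did not pass the test (-0.95 ± 0.34, adjusted p = 0.068). Ugt2a3 was at 12.5 and 11.7 CPM in EGFP cells, 5.56 and 8.91 CPM in EYFP cells, and 181 and 225 CPM in wild-type epithelium. Ugt2a3 was lower in EYFP than in EGFP cells by 0.75 ± 0.24 (adjusted p = 0.043), a call lost without either EGFP library (adjusted p = 0.20 and 0.12) or the first EYFP library (0.21, at a log2 fold change of -0.44). Ugt2b35 was at 21.5 and 20.1 CPM in EGFP cells, 9.22 and 14.0 CPM in EYFP cells, and 117 and 87.2 CPM in wild-type epithelium. It was lower in EYFP than in EGFP cells by 0.84 ± 0.24 (adjusted p = 0.028), and lost the call without the same 3 libraries (0.19, 0.083 and 0.15).

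Ugt2b5 and Ugt2b36 were low in both sorted groups. Ugt2b5 was at 113 and 51.8 CPM in wild-type epithelium, against 2.05 and 3.30 CPM in EGFP cells and 1.83 and 3.53 CPM in EYFP cells, 29.9-fold and 30.9-fold lower (adjusted p = 0.00077 and 0.00036). Without the first wild-type library its log2 fold changes were -4.24 and -4.29 in place of -4.90 and -4.95. Of its 50-base windows, 58.3% occur in no other gene. Ugt2b36 was at 23.0 and 15.2 CPM there, against 1.33 and 1.52 CPM in EGFP cells and 1.34 and 1.93 CPM in EYFP cells. Neither gene separated the 2 sorted groups (adjusted p = 0.96 and 0.75). For Ugt2b34 against wild-type epithelium, the log2 fold change was -2.39 in EGFP cells and -3.34 in EYFP cells, and -3.98 in EYFP cells without the second EYFP library.

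Of the 18 sulfotransferase genes, 5 could be tested. Sult1d1, which conjugates catecholamines and other small phenols, was the most abundant, at 84.5 and 102 CPM in EGFP cells, 147 and 175 CPM in EYFP cells, and 326 and 376 CPM in wild-type epithelium. The 3 groups did not overlap. It was 1.73-fold higher in EYFP than in EGFP cells (0.79 ± 0.17, adjusted p = 0.0096), and 3.76-fold and 2.18-fold lower than in wild-type epithelium in EGFP and EYFP cells. The call between the sorted groups was lost without the first EGFP or the second EYFP library (adjusted p = 0.072 and 0.070). Its neighbour Sult1b1, an intestinal enzyme for thyroid hormones, was at 17.1 and 25.9 CPM in EGFP cells, 10.2 and 16.6 CPM in EYFP cells, and 346 and 510.3 CPM in wild-type epithelium. Sult1b1 was 19.8-fold and 32.0-fold lower in the sorted groups than in wild-type epithelium (adjusted p = 0.00019 and 5.4e-05), and the sorted groups did not differ past the test (adjusted p = 0.15). Sult1b1 and Sult1d1 lie side by side at chr5:87513327-87591611, with the estrogen sulfotransferase gene Sult1e1, which was at 0 counts in all 6 libraries. Sult1d1 made up 72.6% and 67.0% of Sult counts in EGFP cells, 85% in both libraries of EYFP cells, and 42.7% and 35.3% in wild-type epithelium.

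Sult2b1, the cholesterol sulfotransferase, was at 8.56 and 16.4 CPM in EGFP cells, 9.93 and 8.15 CPM in EYFP cells, and 84.6 and 175 CPM in wild-type epithelium. Both sorted groups lay below it, by 10.3-fold and 14.3-fold (adjusted p = 0.002 and 0.00071), and the log2 fold changes of -3.36 and -3.84 became -2.74 and -3.22 without the second wild-type library. Sult4a1, a sulfotransferase gene known from the brain, had few counts but ran the other way. It was at 0.362 and 1.10 CPM in EGFP cells, 2.68 and 2.35 CPM in EYFP cells, and 0.0832 and 0.181 CPM in wild-type epithelium. It passed the filter on low counts only through the EYFP libraries, where it was highest. Its log2 fold change over wild-type epithelium was 4.09 ± 0.72 in EYFP cells (adjusted p = 0.0017, and 4.75 without the second wild-type library). In EGFP cells it was 2.38 ± 0.80 (adjusted p = 0.046), a call lost without the second EGFP library (1.33, adjusted p = 0.41), either wild-type library (0.16 and 0.11), either EYFP library (0.080 and 0.077), with the replicate block (0.058) or with DESeq2's Wald test (0.076); without the first EGFP library and without the second wild-type library the value was 3.01 and 3.04. Sult1c2 stayed between 2.11 and 5.83 CPM in all libraries and passed none of the tests. The Sult2a genes, whose enzymes sulfate bile acids and steroids in the liver, were all at 0 counts.

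Among the glutathione S-transferases, the largest log2 fold changes of EYFP over EGFP cells were those of Gstt1, of the theta class, and Gstz1, of the zeta class. Gstt1, the theta enzyme known for acting on halogenated methanes, was at 136 and 153 CPM in EGFP cells, 1015 and 663 CPM in EYFP cells, and 92.3 and 130.3 CPM in wild-type epithelium. Both EYFP libraries lay above the other 4. It was 5.81-fold higher in EYFP than in EGFP cells (2.54 ± 0.27, adjusted p = 0.00066) and 7.54-fold higher than in wild-type epithelium (2.91 ± 0.27, adjusted p = 7.2e-05). Between EGFP cells and wild-type epithelium the difference was 0.38 ± 0.25 (adjusted p = 0.28). With 1 library left out, the difference between the sorted groups ran from 2.20 to 2.81, with an adjusted p of at most 0.01. Gstt1 alone held 40.6% and 28.3% of the counts of all 62 genes in EYFP cells, against 7.17% and 6.93% in EGFP cells and 1.14% and 1.67% in wild-type epithelium. All of its 50-base windows occur in no other gene.

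The 3 other theta genes lie beside Gstt1 at chr10:75774117-75837419, and neither tested one was higher in EYFP cells. Gstt3 was at 46.9 and 54.8 CPM in EGFP cells, 34.2 and 23.4 CPM in EYFP cells, and 80.6 and 91.2 CPM in wild-type epithelium. Gstt3 was lower in EYFP than in EGFP cells by 0.82 ± 0.20 (adjusted p = 0.017), a call lost without either EGFP library (adjusted p = 0.051 and 0.084) or the second EYFP library (0.088). Its lower level in EGFP cells than in wild-type epithelium (-0.75 ± 0.20, adjusted p = 0.018) lost the call without the first EGFP or the second wild-type library (0.15 and 0.083). Gstt2 was at 44.8 and 51.5 CPM in EGFP cells, 39.99 and 35.6 CPM in EYFP cells, and 41.5 and 44.6 CPM in wild-type epithelium, and passed none of the tests. Gstt4 was at 0.352 CPM or less in every library and was not tested. Gstz1, on another chromosome at chr12:87147161-87164723, encodes the enzyme of tyrosine breakdown that isomerizes maleylacetoacetate. It was at 76.4 and 73.2 CPM in EGFP cells, 224 and 193 CPM in EYFP cells, and 73.1 and 74.8 CPM in wild-type epithelium. Its level was 2.79-fold and 2.82-fold higher in EYFP cells than in EGFP cells and wild-type epithelium (1.48 ± 0.14 and 1.49 ± 0.14, adjusted p = 0.00044 and 6.4e-05), while those 2 groups overlapped (0.02 ± 0.14, adjusted p = 0.94). With 1 library left out, the difference between the sorted groups ran from 1.37 to 1.58.

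**Figure D4:**
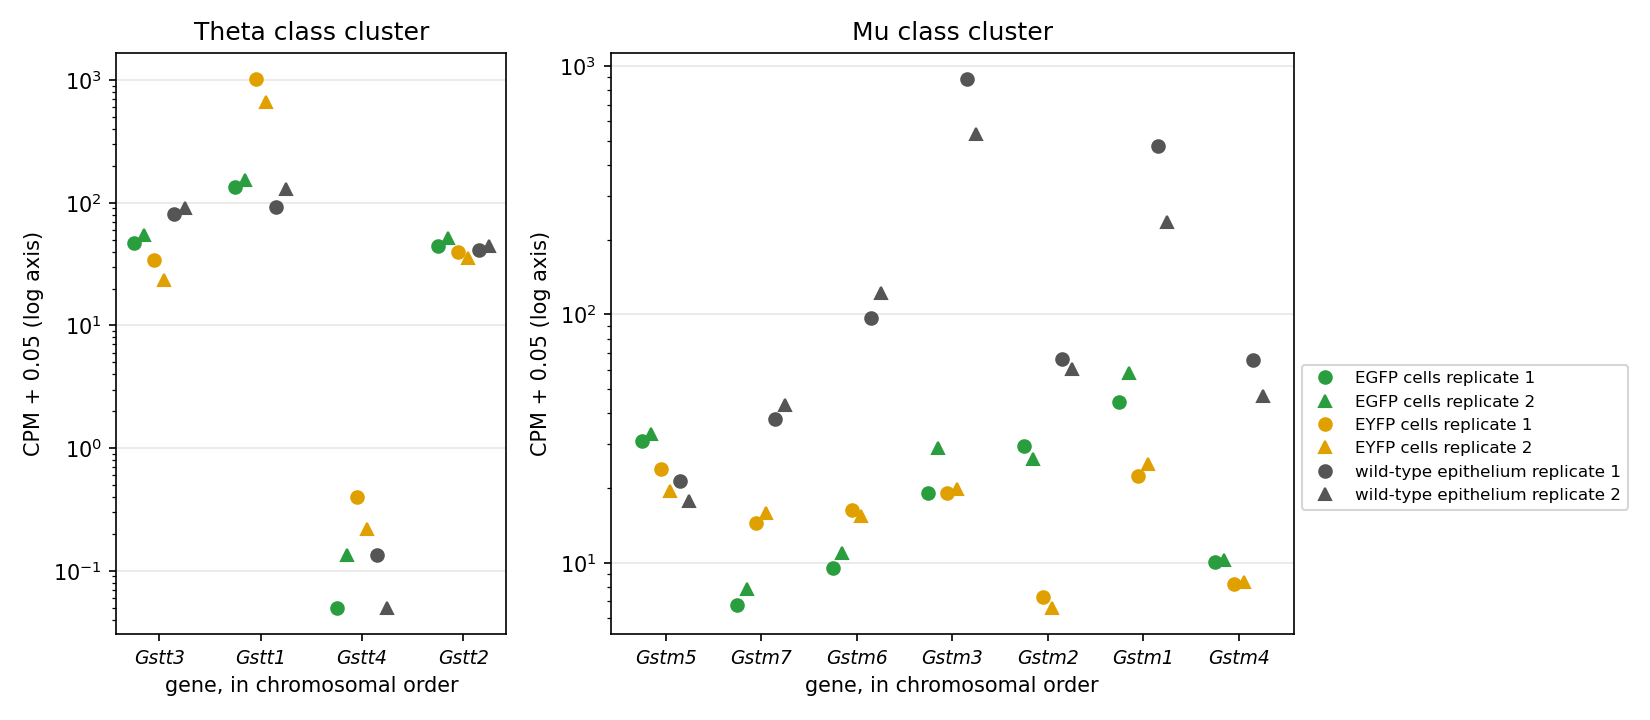
Level of the theta genes (left) and mu genes (right) in chromosomal order, in CPM plus 0.05 on log axes, 1 point per library. Colour gives the group and symbol shape the replicate. Gstt1 has both EYFP libraries, at 1015 and 663 CPM, above all others, and the mu genes differ in whether EYFP points lie above (Gstm6, Gstm7) or below (Gstm1, Gstm2, Gstm5) the EGFP points.

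The alpha class held the gene with the lowest log2 fold change of all the genes described here between the sorted groups. Gsta4, the enzyme specialised in the lipid peroxidation product 4-hydroxynonenal, was at 57.7 and 154 CPM in EGFP cells, 2.46 and 3.70 CPM in EYFP cells, and 135 and 96.6 CPM in wild-type epithelium. Both EYFP libraries lay below the other 4, and EGFP cells and wild-type epithelium overlapped. It was 34.7-fold lower in EYFP than in EGFP cells (-5.12 ± 0.60, adjusted p = 0.0026) and 37.8-fold lower than in wild-type epithelium (adjusted p = 0.00082). The 2 EGFP libraries differed, and without the second EGFP library the difference between the sorted groups was -4.24 (adjusted p = 0.0012). Gsta1, an enzyme for small electrophiles, was at 24.5 and 44.1 CPM in EGFP cells, 6.06 and 11.3 CPM in EYFP cells, and 607 and 358 CPM in wild-type epithelium. It was lower in EYFP than in EGFP cells by 1.99 ± 0.45 (adjusted p = 0.019), a call lost without the second EGFP library (-1.50, adjusted p = 0.074) or the first EYFP library (-1.60, adjusted p = 0.076), and 14.0-fold and 55.7-fold lower than wild-type epithelium in EGFP and EYFP cells. Only 10.3% of its 50-base windows occur in no other gene, the rest being shared mainly with Gm3776, Gsta2 and Gm10639, so the division of its reads is uncertain.

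Gsta2 was at 0.241 and 0 CPM in EGFP cells, 0 in EYFP cells, and 5.49 and 3.07 CPM in wild-type epithelium. It passed the filter on low counts only through the wild-type libraries. The ratio of wild-type epithelium to EGFP cells was 41.2 (95% counting interval 11.1 to 344, from 2 counts, both in the first EGFP library), and EYFP cells were at least 35.6-fold lower than wild-type epithelium. The fitted log2 fold change of Gsta2 in EGFP cells against wild-type epithelium was -5.25, -4.09 without the second EGFP library, and -8.77 without the first, a fit against a library at 0 that is no measure of size. Gsta3 was at 0.844 and 1.35 CPM, 0.634 and 1.34 CPM, and 14.8 and 3.37 CPM in the same order of groups. Its log2 fold change against wild-type epithelium was -2.998 ± 0.80 in EGFP cells and -3.20 ± 0.79 in EYFP cells (adjusted p = 0.022 and 0.011). Without the first wild-type library these became -1.59 and -1.78 (adjusted p = 0.11 and 0.057), and without the second -3.71 and -3.91. The EGFP call was also lost without either EGFP library (0.14 and 0.095), and the EYFP call without the first EYFP library (0.071); it was -3.81 without the second.

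The 7 mu genes, which act on a wide range of electrophiles, lie within chr3:107895854-108045179 and split between the directions. Gstm2 was at 29.5 and 26.1 CPM in EGFP cells, 7.25 and 6.56 CPM in EYFP cells, and 65.8 and 60.1 CPM in wild-type epithelium. The 3 groups did not overlap, and it was 4.01-fold lower in EYFP than in EGFP cells (-2.01 ± 0.17, adjusted p = 0.00031). Gstm1 was at 44.4 and 58.1 CPM in EGFP cells, 22.3 and 24.9 CPM in EYFP cells, and 478 and 235 CPM in wild-type epithelium. Gstm1 was lower in EYFP than in EGFP cells by 1.12 ± 0.34 (adjusted p = 0.047), but the call was lost without any 1 of the 4 sorted libraries (0.12 to 0.17) or with the replicate block (0.075). Against wild-type epithelium its log2 fold changes of -2.80 and -3.92 became -2.20 and -3.32 without the first wild-type library. Gstm5 was at 31.0 and 33.0 CPM in EGFP cells, 23.8 and 19.4 CPM in EYFP cells, and 21.3 and 17.8 CPM in wild-type epithelium. It was lower in EYFP than in EGFP cells by 0.57 ± 0.19 (adjusted p = 0.047), which no fit without 1 of the sorted libraries kept (0.078 to 0.23). It was higher in EGFP cells than in wild-type epithelium by 0.71 ± 0.19 (adjusted p = 0.017), and lost that call without the second EGFP or the second wild-type library (0.091 and 0.073).

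Gstm7 and Gstm6, side by side in the cluster, were higher in EYFP than in EGFP cells. Gstm7 was at 6.75 and 7.77 CPM in EGFP cells, 14.4 and 15.9 CPM in EYFP cells, and 38.0 and 43.0 CPM in wild-type epithelium, so the 3 groups did not overlap. The difference between the sorted groups was 2.08-fold (1.06 ± 0.19, adjusted p = 0.0049), and ran from 0.98 to 1.16 with 1 library left out. Gstm6 was at 9.52 and 10.9 CPM in EGFP cells, 16.3 and 15.5 CPM in EYFP cells, and 96.8 and 122 CPM in wild-type epithelium. It was higher in EYFP than in EGFP cells by 0.63 ± 0.18 (adjusted p = 0.027), a call lost without any 1 of the sorted libraries (0.065 to 0.11). Gstm3 and Gstm4 passed the test against wild-type epithelium only. Gstm3 was at 883 and 533 CPM there, against 19.0 and 29.1 CPM in EGFP cells and 19.2 and 19.8 CPM in EYFP cells, 29.3-fold and 36.4-fold lower (adjusted p = 6.7e-05 and 2.2e-05). Gstm4 was at 65.8 and 46.8 CPM there, against 10.004 and 10.2 CPM in EGFP cells and 8.17 and 8.32 CPM in EYFP cells; the sorted groups did not overlap, at an adjusted p of 0.32.

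The pi genes Gstp1 and Gstp2, next to each other at chr19:4035411-4042221, were lower in EYFP cells. Gstp1, an abundant enzyme of many epithelia, was at 267 and 288 CPM in EGFP cells, 116 and 113 CPM in EYFP cells, and 402 and 496 CPM in wild-type epithelium. It was 2.42-fold lower in EYFP than in EGFP cells (-1.28 ± 0.16, adjusted p = 0.0012). Its lower level in EGFP cells than in wild-type epithelium (-0.70 ± 0.16, adjusted p = 0.01) was lost without either EGFP library (0.11 and 0.053). Gstp2 was at 45.4 and 42.1 CPM in EGFP cells, 6.76 and 6.72 CPM in EYFP cells, and 105 and 155 CPM in wild-type epithelium, and was 6.48-fold lower in EYFP than in EGFP cells (-2.70 ± 0.22, adjusted p = 0.00026). The copies share most of their sequence, with 37.7% and 35.7% of windows their own. Their sum was 312 and 329.8 CPM in EGFP cells against 123 and 119.8 CPM in EYFP cells, lower by 1.40 ± 0.18 on the log2 scale (adjusted p = 0.0011).

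The omega enzyme Gsto1, which reduces dehydroascorbate and arsenic compounds, was at 272 and 254 CPM in EGFP cells, 279.5 and 339 CPM in EYFP cells, and 533 and 676 CPM in wild-type epithelium. It did not separate the sorted groups (0.23 ± 0.19, adjusted p = 0.36) and was lower in both than in wild-type epithelium (2.30-fold and 1.95-fold, adjusted p = 0.0017 and 0.0029). Gsto2 was at most 2.35 CPM in any library and passed the filter on low counts only through the EYFP libraries. Its log2 fold change over wild-type epithelium was 3.02 ± 0.66 in EYFP cells (adjusted p = 0.0049). In EGFP cells it was 2.07 ± 0.71 (adjusted p = 0.049), which was lost with any 1 of the 6 libraries left out (0.058 to 0.17), with no filter on low counts (0.064), with the replicate block (0.061) and with DESeq2's Wald test (0.092). Gstk1, the kappa enzyme of mitochondria and peroxisomes, was at 20.5 and 23.6 CPM in EGFP cells, 38.4 and 66.5 CPM in EYFP cells, and 65.4 and 113 CPM in wild-type epithelium. It was 2.37-fold higher in EYFP than in EGFP cells (1.25 ± 0.35, adjusted p = 0.036), a call lost without either EGFP library (0.14 and 0.12) or the second EYFP library (0.79, adjusted p = 0.13), and 4.03-fold lower in EGFP cells than in wild-type epithelium (adjusted p = 0.0052).

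Per kilobase of transcript, the level differed in rank between the groups. Gstp1 led in EGFP cells at 338 CPM per kilobase, ahead of Gsto1 at 222 and Mgst2 at 152. Gstt1 led in EYFP cells at 809 CPM per kilobase, ahead of Gsto1 at 262 and Gstp1 at 139. In wild-type epithelium the highest were Gsta1 at 551, Gstp1 at 547 and Gstm3 at 540 CPM per kilobase, which lie closer together than the 2 libraries of Gsta1 or Gstm3 do. The 2 EYFP libraries of Gstt1 differed from each other by more than the whole level of Gstp1 in EYFP cells.

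The 3 microsomal enzymes are membrane proteins, and all were lower in EYFP than in EGFP cells and in both sorted groups than in wild-type epithelium. Over all genes tested, 19.4% were lower in EYFP than in EGFP cells. Against wild-type epithelium, 21.9% were lower in EGFP cells and 33.5% in EYFP cells. Mgst2, which also makes leukotriene C4, was at 90.5 and 93.3 CPM in EGFP cells, 10.1 and 12.7 CPM in EYFP cells, and 195 and 185 CPM in wild-type epithelium. The 3 groups did not overlap, and it was 8.08-fold lower in EYFP than in EGFP cells (-3.02 ± 0.16, adjusted p = 0.00011) and 2.07-fold lower in EGFP cells than in wild-type epithelium (adjusted p = 0.00099). Mgst1 was at 65.3 and 62.5 CPM in EGFP cells, 26.9 and 35.3 CPM in EYFP cells, and 318 and 211 CPM in wild-type epithelium. It was 2.06-fold lower in EYFP than in EGFP cells (-1.04 ± 0.23, adjusted p = 0.011), a call lost without the first EGFP or the first EYFP library (0.10 and 0.072). Mgst3 was at 94.9 and 143 CPM in EGFP cells, 73.9 and 82.6 CPM in EYFP cells, and 335 and 357 CPM in wild-type epithelium. Its difference between the sorted groups (-0.61 ± 0.20) passed the threshold narrowly and was lost without the second EGFP library (-0.28, adjusted p = 0.34), either EYFP library (0.21 and 0.12) or either wild-type library (0.062 and 0.061). Mgst2 lies at chr3:51636912-51682675, and all 50-base windows of the 3 genes are their own.

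Genes of donor supply, and of related transport, recycling and breakdown, were described from lists of known pathway genes. Their counts between the sorted groups stand beside 16.8% of all genes tested called as higher in EYFP cells and 19.4% as lower, and with lists this short they are counts only. The first list holds 5 genes of UDP-glucuronic acid supply, nucleotide sugar transport and glucuronide cleavage, of which 2 were lower and 0 higher in EYFP cells. Ugp2, which makes UDP-glucose, was at 103 and 98.1 CPM in EGFP cells, 55.0 and 51.7 CPM in EYFP cells, and 115 and 123 CPM in wild-type epithelium (-0.91 ± 0.13 between the sorted groups, adjusted p = 0.0018). Slc35a3, known as a Golgi transporter of UDP-N-acetylglucosamine, was at 171 and 145 CPM in EGFP cells and 81.4 and 85.6 CPM in EYFP cells (-0.92 ± 0.14, adjusted p = 0.0025). Ugdh, which oxidises UDP-glucose to UDP-glucuronic acid, was at 58.6 and 70.2 CPM in EGFP cells, 67.8 and 74.0 CPM in EYFP cells, and 503 and 517 CPM in wild-type epithelium. It was 7.91-fold and 7.18-fold lower in the sorted groups than in wild-type epithelium (adjusted p = 2.7e-05 and 8.5e-06), and the sorted groups did not differ past the test (adjusted p = 0.51).

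For sulfate, EYFP cells had 2 of 10 tested genes above EGFP cells and 2 below, beside 16.8% and 19.4% of all genes. The 2 PAPS synthases ran in opposite directions against wild-type epithelium: Papss1 was at 217 and 221 CPM in EGFP cells, 311 and 285 CPM in EYFP cells, and 86.5 and 105 CPM in wild-type epithelium, whereas Papss2 was at 49.8 and 66.4 CPM, 61.6 and 75.7 CPM, and 998 and 833 CPM. The sorted groups did not differ past the test for either (adjusted p = 0.053 and 0.40). Impad1, which removes the spent nucleotide in the Golgi, was at 125 and 104 CPM in EGFP cells, 45.1 and 46.6 CPM in EYFP cells, and 61.0 and 62.9 CPM in wild-type epithelium (-1.32 ± 0.14 between the sorted groups, adjusted p = 0.00068). Slc35b3, a Golgi transporter of PAPS and the other lower gene, was at 37.2 and 33.2 CPM in EGFP cells and 21.9 and 23.2 CPM in EYFP cells, and lost its call without the first EGFP library (-0.50, adjusted p = 0.13) or either EYFP library (0.085 and 0.059). The sulfate transporter gene Slc13a1 was at 8.56 and 10.4 CPM in EGFP cells, 15.0 and 21.8 CPM in EYFP cells, and 82.6 and 90.1 CPM in wild-type epithelium (0.95 ± 0.22, adjusted p = 0.013), a call lost without the first EGFP or the second EYFP library (0.088 and 0.073). Suox, the mitochondrial sulfite oxidase, was at 116 and 139.7 CPM in EGFP cells, 281 and 179 CPM in EYFP cells, and 10.8 and 15.7 CPM in wild-type epithelium. Its difference between the sorted groups (0.85 ± 0.26, adjusted p = 0.039) was lost without either EGFP library (0.15 and 0.087), without the first EYFP library (0.49, adjusted p = 0.20) or with the replicate block (0.063).

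For glutathione, EYFP cells had 2 of 15 genes above EGFP cells and 6 below, beside 16.8% and 19.4% of all genes. The 2 higher genes were the subunits of glutamate-cysteine ligase, the first step of synthesis. Gclm, the modifier subunit, was at 42.5 and 49.9 CPM in EGFP cells, 77.9 and 80.9 CPM in EYFP cells, and 95.7 and 121 CPM in wild-type epithelium (0.78 ± 0.16, adjusted p = 0.0088). Gclc, the catalytic subunit, was at 94.98 and 84.8 CPM, 118 and 131 CPM, and 62.7 and 65.5 CPM (0.47 ± 0.13, adjusted p = 0.029, lost without any 1 of the sorted libraries at 0.061 to 0.17). Cbs, which feeds cysteine synthesis, was at 15.8 and 10.5 CPM in EGFP cells and 2.39 and 3.11 CPM in EYFP cells (-2.25 ± 0.43, adjusted p = 0.0065, and -1.87 with adjusted p = 0.056 without the first EGFP library). Chac1, which degrades glutathione, rested on 1 library, at 19.6 and 2.87 CPM in EGFP cells and 0.563 and 0.925 CPM in EYFP cells: its log2 fold change of -3.90 ± 0.99 (adjusted p = 0.025) became -1.89 without the first EGFP library (adjusted p = 0.12) and -4.73 without the second, and the call was lost without either EYFP library (0.14 and 0.10), with no filter on low counts (0.062) or with only the 4 sorted libraries (0.051). The cystine carrier gene Slc7a11 was at 2.65 and 1.61 CPM in EGFP cells and 0.634 and 0.0841 CPM in EYFP cells (-2.46 ± 0.76, adjusted p = 0.038). Its call was lost without either EGFP library (0.22 and 0.080), the second EYFP library (-1.72, 0.15) either wild-type library (0.064 and 0.061) or with DESeq2's Wald test (0.090), and its value was -4.49 without the first EYFP library. The other 3 lower genes were Gss, Gsr and G6pdx. Gss, the second step of synthesis, was at 50.1 and 54.3 CPM in EGFP cells and 36.9 and 35.5 CPM in EYFP cells (-0.53 ± 0.13, adjusted p = 0.016, lost without any 1 of the sorted libraries at 0.064 to 0.096). Gsr, which reduces oxidised glutathione, was at 145 and 111 CPM and at 81.1 and 74.0 CPM (-0.72 ± 0.17, adjusted p = 0.013), and lost the call without the first EGFP library (-0.46, 0.13) or either EYFP library (0.055 and 0.084). G6pdx, which supplies NADPH, was at 65.3 and 63.5 CPM and at 40.1 and 33.1 CPM (-0.81 ± 0.14, adjusted p = 0.0043), and kept its call in each alternative fit.

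Of 8 genes for the pumps that export conjugates, 3 were higher in EYFP than in EGFP cells and 0 were lower, beside 16.8% and 19.4% of all genes. They were Abcc1, Abcc4 and Abcc5. Abcc3 did not separate the sorted groups past the test (adjusted p = 0.19). It was at 110 and 168 CPM in EGFP cells, 79.4 and 121 CPM in EYFP cells, and 207 and 201 CPM in wild-type epithelium. Against wild-type epithelium, EGFP cells had 3 of the 8 genes higher and 4 lower, beside 19.6% and 21.9% of all genes. EYFP cells had 3 higher and 5 lower there, beside 27.1% and 33.5%. Abcc4 was at 17.2 and 16.3 CPM in EGFP cells, 45.6 and 43.0 CPM in EYFP cells, and 1.998 and 3.50 CPM in wild-type epithelium, so the 3 groups did not overlap (1.40 ± 0.23 between the sorted groups, adjusted p = 0.0035). Abcc5 was at 32.9 and 41.3 CPM, 73.0 and 91.6 CPM, and 11.6 and 15.9 CPM in the same order (1.15 ± 0.21, adjusted p = 0.005). Abcc1 was at 52.3 and 41.7 CPM, 92.9 and 79.2 CPM, and 19.0 and 16.3 CPM (0.88 ± 0.17, adjusted p = 0.007, and 0.051 without the first EYFP library). Abcc2, the pump of the apical membrane that faces the gut lumen, was far higher in wild-type epithelium than in the sorted groups, which overlapped: 15.7 and 21.7 CPM in EGFP cells, 10.3 and 21.2 CPM in EYFP cells, and 407 and 463 CPM in wild-type epithelium. It was 23.1-fold and 27.8-fold lower in EGFP and EYFP cells than there (adjusted p = 0.00023 and 8.5e-05), at a log2 fold change of -4.79 in EYFP cells and -5.40 without the second EYFP library.

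Among 14 regulators known to act on conjugating enzyme genes, 4 were lower in EYFP than in EGFP cells and 0 were higher, beside 19.4% and 16.8% of all genes. Rxra, the shared partner of the nuclear receptors for drugs and bile acids, was at 57.5 and 59.2 CPM in EGFP cells, 29.8 and 31.3 CPM in EYFP cells, and 177 and 215 CPM in wild-type epithelium (-0.93 ± 0.15, adjusted p = 0.0027). Nfe2l2, which encodes NRF2, was at 129 and 149 CPM, 78.7 and 94.2 CPM, and 435 and 407 CPM (-0.69 ± 0.16, adjusted p = 0.013, lost without either EGFP library at 0.066 and 0.088 or the first EYFP library at 0.11). Hnf4a, an enterocyte regulator, was at 743 and 718 CPM, 489.6 and 459 CPM, and 984 and 954 CPM (-0.62 ± 0.17, adjusted p = 0.025, lost without any 1 of the sorted libraries at 0.10 to 0.17). Keap1, the inhibitor of NRF2, was lower too (-0.52 ± 0.17, adjusted p = 0.041), a call lost without either EGFP library (0.18 and 0.098), the second EYFP library (0.23), or with DESeq2's size factors (0.058) or Wald test (0.071). Of 9 tested targets of NRF2 or the aryl hydrocarbon receptor outside these families, 1 was higher and 2 lower, beside the same shares of all genes. Nqo1 was at 15.7 and 21.2 CPM in EGFP cells, 6.83 and 15.5 CPM in EYFP cells, and 76.7 and 58.5 CPM in wild-type epithelium, and did not separate the sorted groups past the test (adjusted p = 0.19). Tiparp was higher (1.06 ± 0.28, adjusted p = 0.024, and 0.12 without the second EGFP or the second EYFP library). The lower genes were Gpx2 (-1.45 ± 0.34, adjusted p = 0.016) and Srxn1 (-0.98 ± 0.22, adjusted p = 0.013). Gpx2 lost its call without the first EGFP library (-0.86, adjusted p = 0.075) or either EYFP library (0.061 and 0.087), and Srxn1 without any 1 of the sorted libraries (0.054 to 0.075).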

How the data were processed

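Per the labels' protocols, RNA was isolated with RNeasy Micro columns, made into TruSeq libraries and read on a HiSeq2000, single-end, 50 bases. The submitters' processing notes name RSEM 1.3.1, Bowtie2, FastQC 0.11.8, DESeq2 1.26.0 and mm10; no setting or strand handling is given in the sources used here. The values used are the authors' estimated counts for each gene, which split reads that fit more than 1 gene; their comparison table was not used here.

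Estimated counts were rounded. edgeR 4.0.16 (R 4.3.3) with filterByExpr left 13935 of 23845 genes (58.4%). Counts were scaled by TMM and tested with the robust quasi-likelihood F test in 1 model of 3 group means over the 6 libraries (3 residual degrees of freedom, biological coefficient of variation 19.8%), with Benjamini-Hochberg adjustment at 0.05. SEs were computed from the F values. The procedure was tested on simulated data. CPM intervals and floors (3 counts) cover counting error only. Positions and promoter windows were matched by RefSeq identifiers for all 62 genes or for those listed, and 50-base windows were counted in GENCODE vM21 transcripts of the table's genes.

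The genes, the pathway and marker lists and the tests were chosen with earlier results of these data known. Every gene that matches the symbol rule is accounted for. Values per library are given for genes at 20 CPM or more in any library, or called between the sorted groups with both libraries of the higher group at 5 CPM or above; a few lower genes were named after their values were seen. Of each pathway list, the first gene and up to 3 with the largest called change are named. The choice of Papss2, Ugdh, Slc35b3, Gclm, Gss, Gsr, G6pdx, Abcc2, Abcc3 and Keap1 beyond this followed their role or their call. Alternatives were DESeq2's size factors and Wald test (DESeq2 1.42.0), TMM without the 50 most abundant genes, other filters on low counts (none, or 10 counts in both libraries of a group), a replicate block, only the 4 libraries compared, copies summed, a fold of at least 2, and each library left out in turn.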

Additional observations from a re-analysis of the deposited data

How the results depend on the processing

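Leaving out 1 library at a time gave 3 to 8 genes higher and 7 to 14 lower in EYFP than in EGFP cells, 0 to 3 higher and 24 to 27 lower in EGFP cells than in wild-type epithelium, and 5 to 6 higher and 26 to 28 lower in EYFP cells than in wild-type epithelium. Requiring a fold of at least 2 left 9 of the 14 lower genes between the sorted groups. The 3 genes higher in EGFP cells than in wild-type epithelium came to 1 with only the 4 libraries compared and to 1 with DESeq2's Wald test. In the fit of 4 libraries, Gsto2 and Sult4a1 did not pass the filter on low counts and were not tested. The other alternatives kept all 6 counts within 1.5 times, though not always the same genes: with no filter on low counts, Ugt1a6a, Ugt1a6b, Gstk1, Gsta1 and Gstm1 lost their calls between the sorted groups. DESeq2's size factors moved the median of all genes for EYFP cells against wild-type epithelium from -0.12 to -0.01, and gave 9 higher and 10 lower genes between the sorted groups. Apart from Gsto2 and Sult4a1 in the fit of 4 libraries, the cause of these changes was not tested.

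With the replicate block, the counts were 7 higher and 15 lower between the sorted groups, 3 and 27 for EGFP cells and 6 and 28 for EYFP cells against wild-type epithelium. Replicate numbers only name the libraries: deviations from the group means correlated across 13935 genes by 0.022 between the EGFP and EYFP libraries, 0.096 between the EGFP and wild-type libraries and 0.014 between the EYFP and wild-type libraries.

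Log2 fold changes that did not pass the test changed sign as follows, with the cause not tested. Between the sorted groups, Ugt2b5 was at 0.025 with DESeq2's size factors and 0.051 with its Wald test. With 1 library left out it ran from -0.58 to 0.37 (0.36 without the second EGFP library), Gstm3 from -0.52 to 0.026, Gsta3 from -0.82 to 0.26 (0.20 without the second EGFP library), Sult2b1 from -0.80 to 0.077, Ugt2b36 from -0.10 to 0.43 and Abcc2 from -0.87 to 0.17. Ugt1a10 ran from -1.24 to 7.24 (-0.50 without the first EGFP library), the highest being a fit against a library at 0, which is no measure of size. For EGFP cells against wild-type epithelium, Gsta4 ran from -1.003 to 0.51 (0.14 without the first wild-type library), Ugt1a6b from -0.87 to 0.45 and Sult1c2 from -0.12 to 1.19. For EYFP cells against wild-type epithelium, Gstm5 ran from -0.0056 to 0.298 and Ugt1a9 from -0.51 to 0.33 (0.022 without the first EGFP and 0.18 without the first EYFP library), and Ugt1a9 was at 0.028 with only the 4 libraries compared.

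With 2 libraries a group, small differences and genes of few counts are the least certain.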
